A study of Mus musculus with 8 samples.

Results

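Gene expression at postnatal day 12 (P12) in normal air was compared with that at embryonic day 15 (E15) in mouse brain cells that carry tdTomato, a red fluorescent reporter protein, and that the labels call progenitor cells. The comparison takes the 4 of the study's 8 RNA sequencing libraries that are labelled P12 normoxia (2 libraries) or E15 wild type (2 libraries), over all 53507 gene rows of the count files. The other libraries come from E13 embryos (2) and from P12 pups kept in 10% oxygen for 8 days, from P3 to P11 (2), and here they enter the filter on low counts and the estimate of the spread between replicates, with the hypoxic levels of a few genes given as values at the end. The normoxic pups were kept in a normal atmosphere, and mothers were exchanged between the normoxic and hypoxic litters during rearing. All 4 groups share the tdTomato reporter, the brain as source and an input of 400 pg of total RNA per library. The labels used here name neither the promoter or Cre driver of the reporter nor the brain region, and the files held 0 rows for tdTomato, so the reporter itself was not measured. No label says that the 2 replicates of a group came from separate animals, so the p-values measure only the spread between libraries.

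In the embryonic forebrain, radial glia divide along the ventricle and give rise, directly or through intermediate progenitors, to neurons. Around birth their descendants turn to making astrocytes and oligodendrocyte progenitors, and some persist as neural stem cells of the postnatal ventricular-subventricular zone, where they also give rise to interneurons of the olfactory bulb. Notch signalling holds progenitors in an undifferentiated state, proneural factors such as Neurog2 and the Neurod family drive neuron production, and transcription factors of the nuclear factor I family promote astrocyte genes. In a pool of sorted cells, a lower level of a gene in each cell and fewer cells that express it cannot be told apart.

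The libraries held 41521485 and 47084796 counts in gene rows at E15 and 46023539 and 36252027 at P12. Genes with 10 or more counts numbered 17520 and 17697 at E15, and 14129 and 16468 at P12. The 100 most abundant genes took 14.2% and 14.6% of the counts at E15 and 33.8% and 26.7% at P12, and mitochondrial genes took 1.31% and 1.37% against 0.307% and 0.396%. Replicates agreed closely at E15 and less at P12: of the genes with at least 10 CPM (edgeR's counts scaled to the normalised library size) in one library of a group, 1 of 9490 was under 1 CPM in the other library at E15 and 1628 of 11423 (14.3%) at P12. Pearson's r between replicates, across genes that are not independent of each other, was 0.9879 at E15 and 0.8171 at P12 on the log2(CPM + 1) scale. These differences between the groups lie beside every result below, and their part in it was not tested. The progenitor genes Pax6, Nes, Mki67 and Eomes had counts in each of the 4 libraries, and so did the neuron genes Tubb3 and Dcx. At this depth almost any expressed gene has counts, so their presence cannot check the progenitor label. Their levels are given below.

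**Figure D1:**
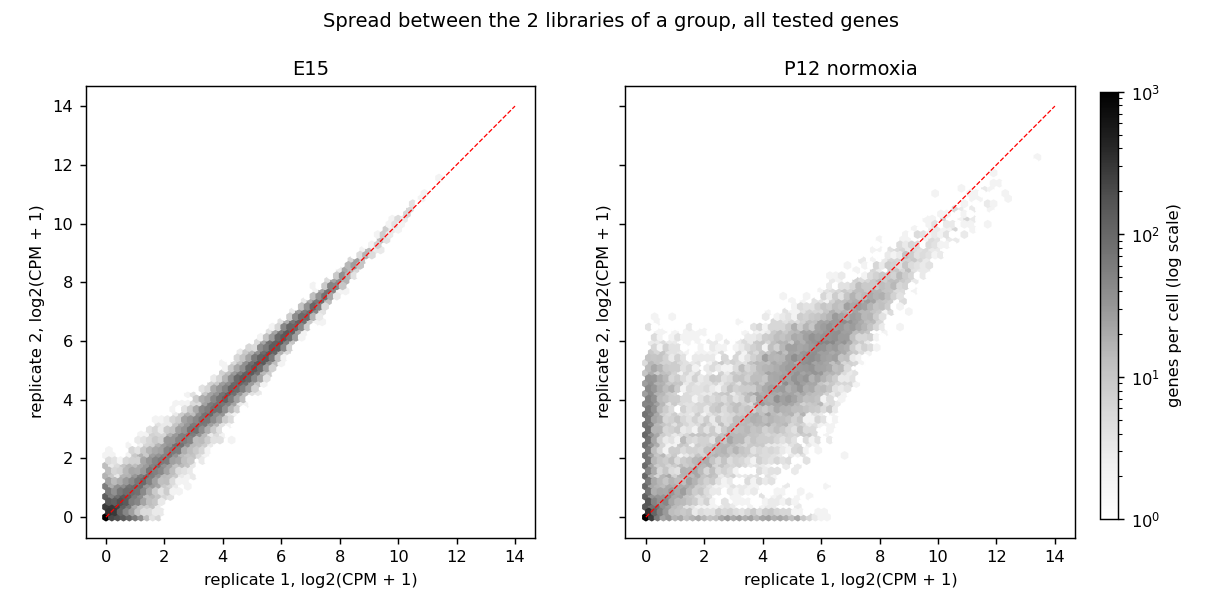
Level of each tested gene in replicate 1 (x axis) and replicate 2 (y axis) of the E15 and P12 normoxia groups, as log2(CPM + 1), with the number of genes per hexagon on a log grey scale and equality as a dashed line. E15 points hug the line, while the P12 panel has arms of genes along both axes, the genes counted mainly in one of its libraries.

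Of 19936 genes tested with edgeR's quasi-likelihood test and Benjamini-Hochberg adjustment, 2075 (10.4%) were called at an adjusted p under 0.05. Of these, 1433 were higher at P12 (7.19% of the tested genes) and 642 lower (3.22%). Both P12 libraries lay above both E15 libraries in 6092 genes (30.6%) and below them in 7341 (36.8%), and the median log2 fold change over all tested genes was 0. Without a scaling factor for library composition that median moved to -0.79, and the share of calls that were higher was 42.9% (1040 higher, 1385 lower) instead of 69.1%, so directions are given relative to the scaled level. The share was 58.6% in DESeq2, which called 3630 higher and 2568 lower. Single libraries moved the counts ("without either library" below means that each was left out in turn): 186 higher and 24 lower without E15 replicate 1, 232 and 28 without E15 replicate 2, 691 and 79 without either E13 library, 674 and 301 without P12 normoxia replicate 1, 1252 and 1042 without P12 normoxia replicate 2, 2412 and 2017 without P12 hypoxia replicate 1, and 2370 and 1830 without P12 hypoxia replicate 2.

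Of the 110 called genes chosen by the naming rule, 40 were called in all 8 of these fits that leave out 1 library. Still called were 40 without E15 replicate 1, 43 without E15 replicate 2, 77 without either E13 library, 77 without P12 normoxia replicate 1, 91 without P12 normoxia replicate 2, and 110 without either hypoxic library. List counts below are to be read against the shares given for all tested genes, and they describe only members that passed the filter on low counts. The called genes that were higher had a median level of 7.15 CPM at E15 and 155 at P12, and 178 of them had no count in either E15 library. The called genes that were lower had a median of 23.9 CPM at E15 and 0.0971 at P12, and 189 had no count in either P12 library. For a gene absent from one group the fold change is a lower bound taken at 3 counts per library, and with 1 to 3 counts in that group a ratio is given with its 95% counting interval. Bounds and intervals cover counting error only. Chromosome positions are those of GENCODE M21 on GRCm38.

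**Figure D2:**
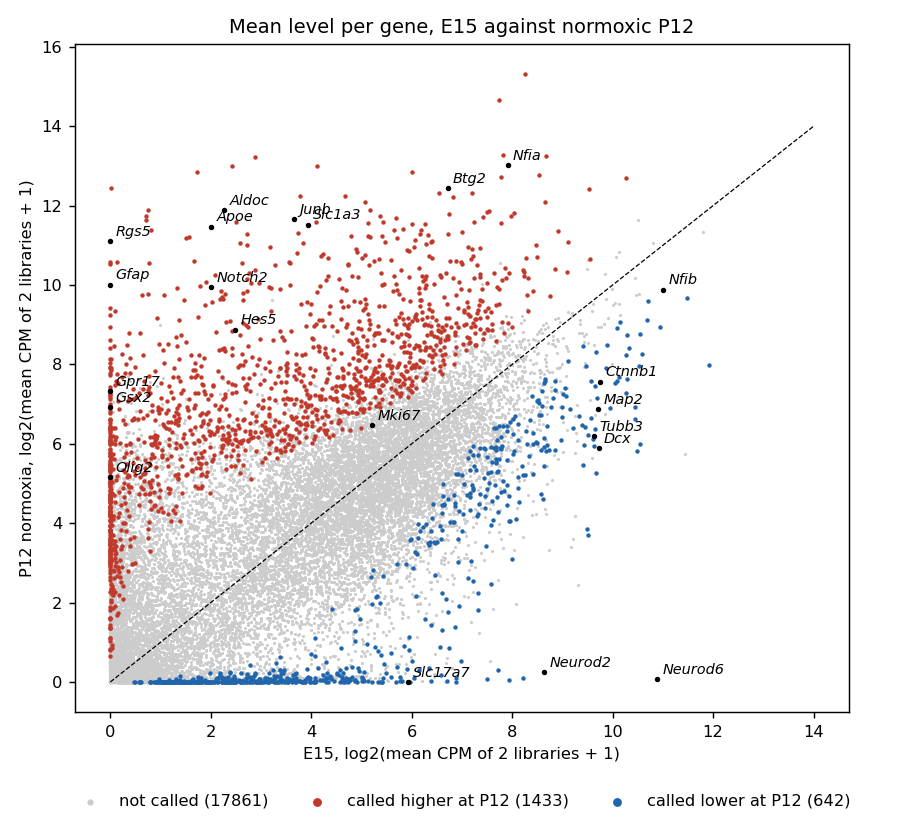
Mean level of each tested gene at E15 (x axis) and at P12 in normoxia (y axis), as log2(mean CPM of 2 libraries + 1), with the 1433 genes called higher in red, the 642 called lower in blue and the others in grey. Genes along the left and bottom edges were absent or nearly absent from one group, among them Gfap, Olig2 and Gsx2 on the left and Neurod6, Neurod2 and Slc17a7 at the bottom.

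The largest separations upward were of genes with few or no counts at E15, which a ranking by the gap between the groups favours. Gfap, the intermediate filament of astrocytes (chromosome 11, 102887336 to 102900912), had no count in either E15 library and 1176 and 884 CPM at P12, at least 20378-fold higher. Hepacam, a glial cell adhesion protein, had 454 and 525 CPM at P12 and was at least 9683-fold higher. Sdc4, a cell surface heparan sulphate proteoglycan, had 1552 and 1397 CPM (at least 29178-fold), and Bhlhe41, a basic helix-loop-helix repressor of the circadian clock, 1975 and 1086 CPM (at least 30282-fold). None of these 4 genes had a count at E15, and presence in both P12 libraries is required by the naming rule. Rgs5, a regulator of G protein signalling (chromosome 1, 169655501 to 169695813), had no count at E15 and 2501 and 1906 CPM at P12, at least 43606-fold higher. Scn4b, a sodium channel beta subunit, had 842 and 379.5 CPM (at least 12082-fold), and Thbs4, a secreted thrombospondin, 332 and 354 (at least 6785-fold). Snhg11, a small nucleolar RNA host gene, had 729.6 and 640.1 CPM (at least 13553-fold), and Pcp4l1 304 and 476 (at least 7709-fold). E15 libraries held no count of these genes either. Dbpht2, a long intergenic RNA, had 2 counts over both E15 libraries and 6398 and 4818 CPM at P12, a ratio of 334270 (95% counting interval 92534 to 2760200). Dusp3, a dual-specificity phosphatase, went from 0.0528 and 0.145 CPM to 1858 and 1218 and rose by 13.87 on the log2 scale (SE 0.71). Fam81a went from 0.0528 and 0.0804 to 660.5 and 629 and rose by 13.17 (SE 0.73). Their edgeR adjusted p-values ran from 0.000972 for Dbpht2 to 0.0404 for Pcp4l1, and of the 12 genes all but Thbs4 (called in 7 of the 8 fits, not without E15 replicate 1) and Pcp4l1 (called in 4, not without either E15 or either P12 normoxia library) were called in all 8.

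Among the named genes, the largest separations downward were those of Neurod6, Mfap4, Dusp4 and Sh3bgrl2, in that order. Several of the others were of neuron genes. Neurod6, a proneural factor of cortical projection neurons (chromosome 6, 55677822 to 55681263), had 1870.5 and 1915 CPM at E15 and 0.0318 and 0.0652 at P12, lower by a ratio of 39252 (95% counting interval 13431 to 190340). Neurod2, of the same family, had 382 and 415 CPM at E15 and 0.349 and 0.0326 at P12 and fell by 11.001 on the log2 scale (SE 1.52). Nhlh2, another basic helix-loop-helix factor of young neurons, had 120.5 and 114 CPM at E15 and no count at P12, at least 1212-fold lower. Slc17a7, the vesicular glutamate transporter VGLUT1, had 59.3 and 59.9 CPM and was at least 617-fold lower, and Lhx9, a LIM homeodomain factor, had 59.99 and 62.8 (at least 636-fold). At E15 the paired values of each of these genes lay close together, and at P12 each was at or near 0 in both libraries, which the ranking by gap favours. St8sia4, which adds polysialic acid to neural cell adhesion molecules, had 111 and 122 CPM against 0.127 and 0.0326 and fell by 10.46 (SE 0.92). Mfap4, a microfibril protein, had 308 and 289 CPM against 0.0635 and 0.0978 and fell by 11.80 (SE 0.85). Chst15, a chondroitin sulphate sulfotransferase, had 85.4 and 104 CPM against 0.127 and 0.130 and fell by 9.49 (SE 1.39). All 3 were near 0 in both P12 libraries. Dusp4, a phosphatase of MAP kinases with 235 and 254 CPM at E15, was lower by a ratio of 7604 (95% counting interval 2105 to 62792), Sh3bgrl2 by 3734 (95% counting interval 1278 to 18108) and Tmem74 by 6453 (95% counting interval 1158 to 254880). The edgeR adjusted p-values of these genes ran from 0.00203 for Mfap4 to 0.0143 for Chst15. Neurod6, Mfap4 and St8sia4 were called in all 8 fits, and Chst15 in 2, those without 1 hypoxic library. The others were called in 6, all but those without E15 replicate 1 or E15 replicate 2.

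**Figure D3:**
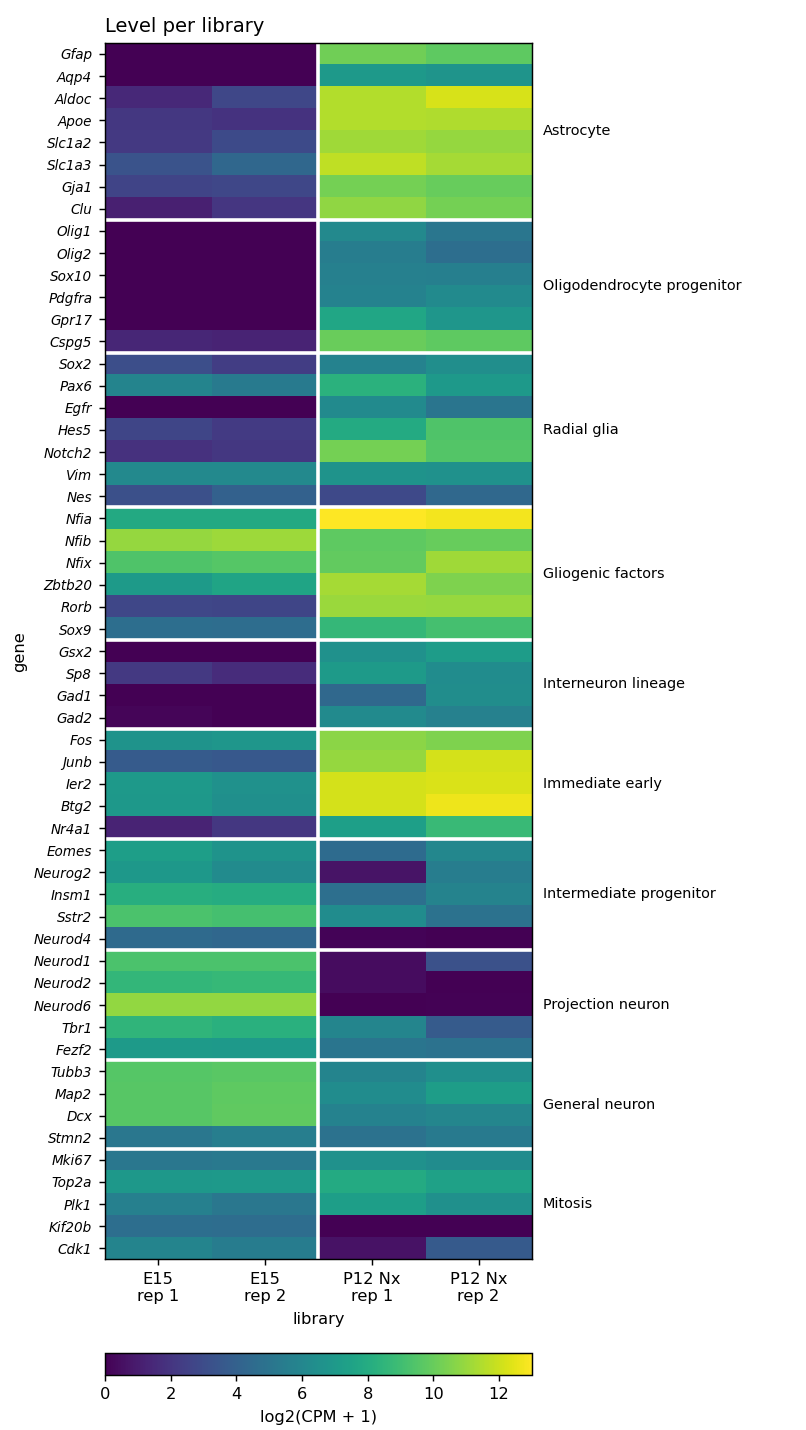
Level of selected members of the gene lists in each of the 4 libraries (Nx marks normoxia), as log2(CPM + 1) on a colour scale from 0 to 13, grouped by list. Astrocyte, oligodendrocyte progenitor and gliogenic genes are brighter in both P12 columns, apart from Nfib, which is darker, and projection neuron genes are brighter in both E15 columns.

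Astrocyte genes rose at P12 almost without exception. Of 22 listed members, all of them tested, 20 were called higher and 0 lower, both P12 libraries lay above both E15 libraries in all 22, and the median log2 fold change was 8.64. Over all tested genes these shares were 7.19% called higher and 30.6% above. Apoe, the lipid carrier that astrocytes secrete (chromosome 7, 19696109 to 19699188), had 3.26 and 2.76 CPM at E15 and 2865 and 2782 at P12, and rose by 9.87 on the log2 scale (SE 0.45, edgeR adjusted p = 0.000756). Aldoc, the brain aldolase, had 1.78 and 5.83 CPM against 2872 and 4711 and rose by 9.96 (SE 0.92). For both genes the E15 libraries held a few CPM and the groups did not overlap. Slc1a2, the glutamate transporter GLT-1, rose from 3.45 and 6.61 CPM to 2279 and 1950.2, and Slc1a3, the transporter GLAST that radial glia also express, from 9.19 and 19.4 to 3435 and 2412. Cst3, the secreted protease inhibitor cystatin C, was already present at E15 with 112 and 96.9 CPM and rose to 2687 and 2319.7, by 4.58 on the log2 scale (SE 0.18). Ndrg2, a cytoplasmic protein of mature astrocytes, rose by 4.79 (SE 0.29). Aqp4, the water channel of astrocyte endfeet, and Aldh1l1, a folate enzyme, had no count at E15. At P12 Aqp4 had 129.8 and 106 CPM (at least 2332-fold higher) and Aldh1l1 119.8 and 73.6 (at least 1913-fold). The 2 members that did not pass were Fgfr3, a fibroblast growth factor receptor, at 17.2 and 21.6 CPM against 45.4 and 58.3, and Slc7a10, an amino acid transporter, at 0.564 and 0.386 against 83.9 and 109. Without E15 replicate 1 or without E15 replicate 2 the count called higher was 12, and Gfap, Apoe, Aldoc, Slc1a2, Cst3 and Ndrg2 were called in all 8 fits.

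Genes of oligodendrocyte progenitors, the migratory glia that later myelinate axons, were also higher. Of 14 members 8 were called higher and 0 lower, both P12 libraries lay above both E15 libraries in all 14, and the median log2 fold change was 9.13, or 8.66 with absent genes at their bound. Olig2, the lineage's transcription factor (chromosome 16, 91225457 to 91228677), had no count at E15 and 44.9 and 24.8 CPM at P12, at least 690.0-fold higher. Olig1, its close relative, was at least 1004-fold higher with 67.7 and 33.7 CPM, and Gpr17, a receptor of committed precursors, at least 3147-fold with 205 and 113. Pdgfra, the receptor for platelet-derived growth factor that marks the lineage, had at most 0.0352 CPM in an E15 library and 54.2 and 73.6 CPM at P12, a ratio of 3794 (95% counting interval 1050 to 31338). Cspg5, a neural proteoglycan, rose from 1.603 and 1.41 CPM to 1055 and 871, and Bcan, the matrix proteoglycan brevican, from 17.2 and 16.4 to 265 and 423. Genes of maturing oligodendrocytes followed with 4 of 10 tested members called higher, 0 lower, and a median log2 fold change of 4.62. Cnp, a myelin-associated phosphodiesterase, rose from 10.7 and 5.27 CPM to 95.2 and 189, and Bcas1, a marker of early myelinating cells, from 2.22 and 0.675 to 51.5 and 20.3. Cldn11, a claudin of myelin, had no count at E15 and 11.4 and 14.3 CPM at P12, at least 254-fold higher. Mbp, myelin basic protein, did not pass, with 6.06 and 18.9 CPM at E15 and 17.3 and 58.8 at P12. Olig2, Gpr17 and Cspg5 were called in all 8 fits. The progenitor count was 5 without P12 normoxia replicate 1 and 3 without either E15 library, and the maturing count was 2 without P12 normoxia replicate 1, 1 without either E13 library and 0 without either E15 library.

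Genes of radial glia and neural stem cells divided into a group that rose and a group that was not called. Of 23 members 12 were called higher and 0 lower, both P12 libraries lay above both E15 libraries in 19, and the median log2 fold change was 4.31. Sox2, the transcription factor of neural stem cells (chromosome 3, 34650405 to 34652461), had 7.66 and 4.21 CPM at E15 and 54.1 and 85.3 at P12, and rose by 3.55 on the log2 scale (SE 0.71, edgeR adjusted p = 0.0346). Ptprz1, a receptor phosphatase of radial glia and oligodendrocyte progenitors, rose from 33.2 and 32.1 CPM to 911 and 680.5. Id4, an inhibitor of basic helix-loop-helix factors, rose from 39.8 and 42.4 to 1628 and 915. In each of these the groups did not overlap. Several classical markers were not called: Pax6, a transcription factor of dorsal radial glia, at 57.1 and 38.1 CPM against 318 and 130.2, Vim, vimentin, at 69.5 and 69.2 against 102 and 95.9, Nes, nestin, at 7.89 and 15.7 against 6.35 and 20.04, and Emx2, of the dorsal forebrain, at 40.0 and 39.9 against 33.9 and 52.6. Emx1, a factor of the cortical lineage, had 43.3 and 35.9 CPM at E15 and 0.254 and 10.9 at P12, and was not called. The count called was 3 without E15 replicate 1 and 4 without E15 replicate 2. Sox2 was called in 2 of the 8 fits, being called only without one of the hypoxic libraries, while Notch2, Ptprz1 and Id4 were called in all 8. Several members (Slc1a3, Hes1, Hes5, Notch2, Lfng, Sox9 and Egfr) also belong to other lists described here.

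In the Notch pathway 1 receptor, 1 receptor-modifying enzyme and 2 effector genes rose at P12, while no ligand was called. Of 19 tested members 4 were called higher and 0 lower, and the median log2 fold change was 0.72. The receptor Notch2 (chromosome 3, 98013527 to 98150361) had 2.68 and 3.34 CPM at E15 and 1239.9 and 734 at P12 and rose by 8.36 on the log2 scale (SE 0.57, edgeR adjusted p = 0.00178), and the receptor Notch1 was not called at 15.2 and 12.3 against 118 and 107. Lfng, a glycosyltransferase that modifies the receptors, rose from 1.39 and 0.225 CPM to 63.3 and 78.8. The ligands Dll1 (90.2 and 65.7 CPM against 12.3 and 0.0978) and Dll3 (37.6 and 34.8 against 17.6 and 0), which newborn neurons and intermediate progenitors express, lay lower in both P12 libraries and were not called. The ligand Jag1 had 3.72 and 8.89 CPM against 59.1 and 119 and was not called either. Both effector genes of the Hes family that radial glia use rose. Hes5 had 5.53 and 3.68 CPM at E15 and 242 and 695 at P12 and rose by 6.67 (SE 0.71), and Hes1 had 1.43 and 0.643 against 40.1 and 72.7 and rose by 5.76 (SE 0.86). Rbpj, the DNA-binding partner of the Notch intracellular domain, was not called at 72.2 and 73.7 CPM against 60.3 and 47.1. The 250 bases before the RefSeq start of Hes5 (GRCm38.p6, chr4:154960673-154960922, + strand) are shown because Hes5 had the larger fitted rise of the 2 effectors, with the letters TGGGAA, the core that Rbpj binds, or their reverse complement in capitals.
Hes5: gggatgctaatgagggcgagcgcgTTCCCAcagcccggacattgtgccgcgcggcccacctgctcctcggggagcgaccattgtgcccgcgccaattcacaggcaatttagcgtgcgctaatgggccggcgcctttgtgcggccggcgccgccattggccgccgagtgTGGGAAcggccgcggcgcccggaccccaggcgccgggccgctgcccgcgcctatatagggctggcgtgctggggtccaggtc
The letters lie 226 bases before the start on the opposite strand and 82 bases before it on the given strand. Searched on both strands, TGGGAA stood in 4 of 16 Notch pathway promoters (25%) and in 5817 of 27025 promoters of that length (21.5%), and a match is a description of the letters only. The count called higher was 2 without either E13 library and 1 without either E15 library. Without either hypoxic library 6 members were called higher and 1 lower, and by DESeq2 8 higher and 1 lower. The median was 0.11 without P12 normoxia replicate 2, 1.57 without P12 normoxia replicate 1, 1.82 without E15 replicate 1 and 1.14 without E15 replicate 2, and it turned negative in limma-voom on the 4 libraries.

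Transcription factors that promote gliogenesis mostly rose. Of 12 members 7 were called higher and 1 lower, and the median log2 fold change was 3.95. Nfia (chromosome 4, 97772734 to 98118874) had 239.7 and 239 CPM at E15 and 9612 and 7018 at P12 and rose by 5.12 on the log2 scale (SE 0.26, edgeR adjusted p = 0.0011). Its relative Nfib (chromosome 4, 82290173 to 82705750) had 1935 and 2192 CPM against 889 and 997 and fell by 1.13 (SE 0.21, edgeR adjusted p = 0.0289). Nfix, at 693 and 758 against 952 and 2233, and Nfic, at 17.9 and 12.3 against 79.8 and 62.7, were not called. The groups did not overlap for Nfia or Nfib. Nfib was also called by DESeq2 and without a scaling factor for library composition, and was not called by limma-voom (adjusted p = 0.433) or with the replicate block (edgeR adjusted p = 0.0769). Rorb, a nuclear receptor, rose from 5.74 and 5.47 CPM to 2109 and 2016, by 8.52 (SE 0.34). Tcf7l2, a Wnt-responsive factor of glial lineages, rose from 20.5 and 37.5 CPM to 1942 and 1728, and Zbtb20, a zinc finger repressor that promotes astrocyte production, from 136 and 192 to 2469.6 and 1455. Sox9, an early gliogenic factor, rose from 24.9 and 24.5 to 397 and 582, Stat3, the effector of astrogliogenic cytokines, from 38.8 and 44.8 to 204 and 149, and Etv5, an ETS factor downstream of fibroblast growth factor, from 1.85 and 1.08 to 53.9 and 62.7. Rorb, Nfia and Tcf7l2 were called in all 8 fits. Nfib was not called without P12 normoxia replicate 1, P12 normoxia replicate 2, E15 replicate 1 or E15 replicate 2, and the list's count called higher was 3 without either E15 library.

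Receptors and feedback inhibitors of epidermal and fibroblast growth factor signalling included 5 that rose. The list had 15 tested members, 0 of them called lower, and its median log2 fold change was 3.58. Egfr, the receptor of transit-amplifying and glial progenitors (chromosome 11, 16752203 to 16918158), had no count at E15 and 74.4 and 32.1 CPM at P12, at least 1054-fold higher. The fibroblast growth factor receptor Fgfr1 rose from 53.1 and 73.8 CPM to 162 and 193 and its relative Fgfr2 from 5.83 and 9.403 to 53.5 and 108. Etv5, given above, was another. Spry2, an inhibitor induced by these receptors (chromosome 14, 105891947 to 105896819), had 0.757 and 0.755 CPM at E15 and 3066 and 2287 at P12 and rose by 11.78 on the log2 scale (SE 0.45, edgeR adjusted p = 0.000679). Its relative Spry1 was not called, at 9.05 and 11.7 CPM against 0.445 and 0.0652, lower in both P12 libraries. Spry4 was not called either, at 0.810 and 0 against 61.7 and 59.8, higher in both. Spry2 was called in all 8 fits, and the count called was 3 without either P12 normoxia or either E13 library, 2 without E15 replicate 1 and 1 without E15 replicate 2. Without either hypoxic library 7 members were called higher and 1 lower, and by DESeq2 9 higher and 1 lower.

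Among immediate early genes, which cells switch on within minutes of a stimulus, 8 of 18 were called higher at P12, 10 were not called and 0 were called lower. Their position varied: both P12 libraries lay above both E15 libraries in 14 and below them in 1, and the median log2 fold change was 4.07. Fos, a subunit of the AP-1 transcription factor (chromosome 12, 85473890 to 85477273), had 103 and 112 CPM at E15 and 1728 and 1409 at P12 and rose by 3.87 on the log2 scale (SE 0.34, edgeR adjusted p = 0.00293). Fosb, its close relative, rose from 3.24 and 4.16 CPM to 139.8 and 268, and their partners Jun and Junb from 72.0 and 74.7 to 667 and 1512 and from 12.3 and 10.9 to 1973 and 4514. Ier2, a nuclear protein of this class, rose from 129.7 and 94.1 CPM to 4558 and 4931. Nr4a1, an orphan nuclear receptor, rose from 1.46 and 3.34 to 161 and 442, and Egr1, a zinc finger factor, from 179 and 96.3 to 479 and 746. Btg2, an antiproliferative gene that also marks neurogenic divisions (chromosome 1, 134075170 to 134079120), had 119 and 88.5 CPM at E15 and 4521 and 6557 at P12 and rose by 5.74 (SE 0.31). In each of these the lower P12 library was above the higher E15 library. Promoters of Fos (GRCm38.p6, chr12:85473640-85473889, + strand) and Btg2 (GRCm38.p6, chr1:134079156-134079405, - strand), the 250 bases before the RefSeq start, are printed for 2 genes that moved together, with the letters TGACG, the core of the cyclic AMP response element, or their reverse complement in capitals.
Fos: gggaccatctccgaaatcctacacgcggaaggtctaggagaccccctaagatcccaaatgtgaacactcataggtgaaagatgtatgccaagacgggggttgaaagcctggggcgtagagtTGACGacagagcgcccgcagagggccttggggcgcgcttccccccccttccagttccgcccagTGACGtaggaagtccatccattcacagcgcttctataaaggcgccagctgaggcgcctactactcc
Btg2: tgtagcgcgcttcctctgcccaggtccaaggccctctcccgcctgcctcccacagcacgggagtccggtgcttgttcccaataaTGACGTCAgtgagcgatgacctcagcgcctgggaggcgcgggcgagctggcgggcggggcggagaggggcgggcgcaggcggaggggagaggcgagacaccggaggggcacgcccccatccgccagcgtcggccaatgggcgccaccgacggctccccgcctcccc
In Fos the letters begin 129 and 66 bases before the start on the given strand. In Btg2 matches on the 2 strands, beginning 166 and 163 bases before the start, overlap in 1 palindrome. Searched on both strands, TGACG stood in 8 of the 15 immediate early promoters found in the RefSeq table (53.3%) and in 4827 of 27025 promoters of that length (17.9%), and a match is a description of the letters only. The count called higher was 1 without E15 replicate 1, 3 without E15 replicate 2 and 12 without either hypoxic library. Btg2 was called in all 8 fits, and Fos was not called without E15 replicate 1.

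Genes of intermediate progenitors, the basal cells that divide once more to make neurons, mostly lay lower at P12, and 0 were called lower by edgeR (5 at an unadjusted p under 0.05, 4 by DESeq2 and 3 by limma-voom). Both P12 libraries lay below both E15 libraries in 12 of 15 members, and the median log2 fold change was -2.44, or -2.27 with absent genes at their bound. The 2 members called were higher: Btg2, given above, and Gadd45g, a growth arrest and stress response gene, which rose from 84.8 and 61.2 CPM to 516 and 610.0, by 2.95 on the log2 scale (SE 0.39). Eomes, the transcription factor that defines these cells, had 157 and 101 CPM at E15 and 22.7 and 63.3 at P12, with a log2 fold change of -1.59 (SE 0.90, edgeR adjusted p = 0.306). Neurog2, the proneural factor of the glutamatergic lineage, had 123 and 77.0 CPM against 0.603 and 44.8, with the P12 replicates far apart. Insm1, a zinc finger factor of neurogenic progenitors, had 283 and 265 CPM against 26.0 and 54.5, and Neurod4, a proneural factor, had 21.3 and 19.3 against 0.0953 and 0.0326. Without P12 hypoxia replicate 1 or replicate 2, 5 members were called lower, and without P12 normoxia replicate 2, 2 were. Of the 2 called higher, 1 was called without either E15 library.

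Genes of cortical projection neurons split into losses and gains. Of 20 members 6 were called lower and 3 higher, and the median log2 fold change was -1.73. Beside Neurod6 and Neurod2, given above, the members called lower included Fezf2, the factor that specifies subcerebral neurons, Rnd2, a small GTPase of migrating neurons, and Nhlh1, a basic helix-loop-helix factor of young neurons. Fezf2 had 137 and 126 CPM at E15 and 32.5 and 29.2 at P12 and fell by 2.09 on the log2 scale (SE 0.34, edgeR adjusted p = 0.0193). Rnd2 fell from 531 and 545 CPM to 169.5 and 125, and Nhlh1, with 20.6 and 28.1 CPM at E15, had no count at P12. Tbr1, of deep layers and the subplate, at 363 and 308 CPM against 59.6 and 12.4, and Neurod1, a proneural factor, at 643 and 628 against 0.349 and 8.51, were lower in both P12 libraries and not called. The 3 members called higher were Pou3f2 (83.2 and 68.9 CPM to 429 and 609), Pou3f3 (203 and 219.9 to 627 and 838) and Lmo4 (77.1 and 100.1 to 436 and 282). Pou3f2 and Pou3f3 are POU factors of upper-layer neurons that progenitors also express, and Lmo4 is a LIM-only transcriptional cofactor with a broad pattern. Members called lower were 1 without either E15 library. Members called higher were 6 without either hypoxic library, 1 without P12 normoxia replicate 1 or without either E13 library, and 0 without either E15 library.

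General neuron genes had 4 of 16 members called lower and 1 higher, with a median log2 fold change of -0.27. Tubb3, the neuronal beta-tubulin (chromosome 8, 123411424 to 123422015), had 749 and 824 CPM at E15 and 56.9 and 87.7 at P12 and fell by 3.44 on the log2 scale (SE 0.49, edgeR adjusted p = 0.013). Map2, a dendritic microtubule protein, fell from 782 and 884 CPM to 80.3 and 151, Elavl2, a neuronal RNA-binding protein, from 353 and 365 to 42.9 and 84.2, and L1cam, an axonal adhesion molecule, from 261 and 288 to 18.8 and 50.4. Dcx, doublecortin of migrating neurons, was not called, at 787 and 899 CPM against 54.1 and 62.6 with an edgeR adjusted p of 0.0555. For all of these the groups did not overlap. Other pan-neuronal genes had overlapping or nearby values and were not called: Stmn2, a microtubule regulator, had 35.0 and 45.7 CPM against 29.3 and 40.5, and Ina, a neuronal intermediate filament, 49.6 and 55.4 against 38.8 and 44.8. The member that rose was Ncam1, a neural cell adhesion molecule of neurons and glia, from 85.8 and 98.3 CPM to 5768 and 4409, in all 8 fits that leave out 1 library. Members called lower were 7 without either hypoxic library, 2 without P12 normoxia replicate 1 or without either E13 library, and 0 without either E15 library. The median was -1.03 without P12 normoxia replicate 1, -0.45 without P12 normoxia replicate 2, -0.41 without E15 replicate 1 and -0.13 without E15 replicate 2.

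Synapse genes had 5 of 24 members called higher and 1, Slc17a7, lower. Their median log2 fold change, 0.41, turned negative without a scaling factor for library composition. Those that rose included subunits of glutamate receptors and an adhesion molecule. Grin2b, a subunit of the NMDA receptor, had 0.335 and 1.03 CPM at E15 and 857 and 890.2 at P12 and rose by 10.31 on the log2 scale (SE 0.90, edgeR adjusted p = 0.0028). Grin2a had no count at E15 and 365 and 193 CPM at P12 (at least 5521-fold higher), and Grin1, the obligatory subunit, rose from 0.141 and 0.434 to 51.2 and 20.1. Nlgn1, a postsynaptic adhesion molecule, rose from 15.01 and 21.4 CPM to 597 and 405. Members of the vesicle release machinery were not called, such as Snap25, a SNARE protein, at 55.4 and 65.1 CPM against 85.8 and 87.6, Syp, synaptophysin, at 60.8 and 66.6 against 27.3 and 10.8, and Vamp2, a vesicle SNARE, at 132 and 152 against 30.4 and 76.6. Members called higher were 3 without P12 normoxia replicate 1 and 2 without either E15 library, and Slc17a7 was not called without either E15 library. Axon guidance and growth cone genes had 13 of 19 members below E15 in both P12 libraries and a median log2 fold change of -1.67, with 3 called lower and 1 higher. The guidance receptors Epha4, Epha5 and Plxna2 fell, from 387 and 413 CPM to 193 and 188, from 408 and 415 to 94.6 and 77.0 and from 374 and 457 to 86.5 and 37.7. Efna5, an ephrin ligand of these Eph receptors, rose from 3.01 and 4.52 CPM to 1054 and 561, by 7.74 (SE 0.50). Cntn2, an axonal glycoprotein, at 447 and 732 CPM against 17.8 and 4.66, and Nrp1, a semaphorin receptor, at 427 and 456 against 56.1 and 9.84, were not called. The guidance genes called lower were 9 without P12 hypoxia replicate 1, 8 without P12 hypoxia replicate 2, 1 without either E13 library and 0 without either E15 library, and Grin2b and Efna5 were called in all 8 fits.

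Genes of the GABAergic interneuron lineage mostly lay higher at P12. Of 15 tested members 4 were called higher and 1 lower, both P12 libraries lay above both E15 libraries in 10, and the median log2 fold change was 5.25. Gsx2, a homeobox factor of the lateral ganglionic eminence and of the dorsal olfactory bulb lineage (chromosome 5, 75075601 to 75077893), had no count at E15 and 94.3 and 146 CPM at P12, at least 2376-fold higher. Sp8, a zinc finger factor of olfactory bulb interneurons, rose from 3.42 and 2.09 CPM to 133 and 79.6. The enzymes that make GABA rose too: Gad2 from 0.123 and 0.0161 CPM to 74.3 and 50.5, and Gad1 from no count to 19.8 and 82.5. Slc32a1, the vesicular GABA transporter, had no count at E15 and 38.1 and 21.7 CPM at P12, and was not called (edgeR adjusted p = 0.151). Calb2, calretinin, had 4.35 and 6.37 CPM at E15 and no count at P12, at least 55.5-fold lower. Lhx6, a factor of medial ganglionic eminence interneurons, was under 1 CPM in all 4 libraries, and Dlx2, Dlx5 and Nkx2-1 did not pass the filter on low counts. Gsx2 was called in all 8 fits. Members called higher were 8 without either hypoxic library and 1 without P12 normoxia replicate 1, either E13 library or either E15 library. Calb2 was not called without either E13 or either E15 library, and the median was 3.08 without P12 normoxia replicate 2. Genes of striatal medium spiny neurons, which make GABA too, moved with this list: Ppp1r1b, of those neurons, had 10.5 and 15.4 CPM at E15 and 685 and 775 at P12, and the part of such cells was not tested.

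Wnt pathway genes moved both ways. Of 19 tested members 4 were called higher and 2 lower, with a median log2 fold change of 1.32. Ctnnb1, which encodes the signal transducer beta-catenin (chromosome 9, 120929216 to 120960507), had 847 and 869 CPM at E15 and 214 and 161 at P12 and fell by 2.19 on the log2 scale (SE 0.29, edgeR adjusted p = 0.01). Of its DNA-binding partners, Lef1 had 13.1 and 18.5 CPM at E15 and no count at P12, at least 164-fold lower, while Tcf7l2 rose as given above. Sfrp1, a secreted inhibitor, rose from 115 and 104 CPM to 502 and 479, and Znrf3, a ubiquitin ligase that removes Frizzled receptors, from 1.48 and 4.03 to 1337 and 829.9, by 8.62 (SE 0.86). Fzd5, a Frizzled receptor, had no count at E15 and 14.3 and 20.01 CPM at P12, at least 339-fold higher. Axin2, a direct target of the pathway, was not called, at 3.58 and 4.44 CPM against 4.64 and 15.8. Znrf3 was called in all 8 fits. Members called higher were 2 without either E15 library. Members called lower were 1 without P12 normoxia replicate 1 or without either E13 library and 0 without either E15 library, and the median was -0.62 without P12 normoxia replicate 2 and 0.50 without P12 normoxia replicate 1.

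Cell cycle genes did not move as a block. Of 26 genes of G1/S and DNA replication 3 were called higher and 0 lower, with a median log2 fold change of 0.89. Ccnd1, the cyclin of G1, had 1.004 and 1.16 CPM at E15 and 154 and 26.0 at P12 and rose by 6.38 on the log2 scale (SE 1.10, edgeR adjusted p = 0.0233). Ccnd2, which radial glia carry into their basal processes, rose from 204 and 176 CPM to 718 and 551, and Tyms, thymidylate synthase, from 33.4 and 26.1 to 194 and 175. Of 24 genes of G2/M and mitosis 1 was called lower and 0 higher, and the median was -0.02. That one was Kif20b, a kinesin of cytokinesis (chromosome 19, 34922361 to 34975745), with 25.2 and 23.8 CPM at E15 and 0.0318 and 0.0326 at P12, 1 count in each library, lower by a ratio of 759.8 (95% counting interval 210.2 to 6277). Mki67, the proliferation marker, had 35.1 and 36.8 CPM at E15 and 95.9 and 79.0 at P12, for a difference of 1.28 on the log2 scale (SE 0.37, edgeR adjusted p = 0.0823, not called), and Top2a, a topoisomerase of dividing cells, had 121 and 128 against 249 and 172. Many mitotic genes stood apart between the 2 P12 libraries: Ttk, a spindle checkpoint kinase, at 0.127 and 31.7 CPM, Bub1b, of the same checkpoint, at 0.159 and 40.1, Kif20a, a mitotic kinesin, at 0.127 and 37.7, and Ccnb2, a mitotic cyclin, at 1.05 and 65.8. At E15 the same genes had 15.2 and 15.9, 63.2 and 54.2, 46.3 and 26.9 and 40.7 and 29.5 CPM. The median of the mitotic list was -1.57, with 7 members called lower, without P12 normoxia replicate 2, and -0.26, with 1 called lower, without P12 normoxia replicate 1. It was 0.02 without E15 replicate 1. In limma-voom it was -0.84, and without a scaling factor for library composition -0.69. The G1/S median was 0.54 without P12 normoxia replicate 1 and 0.12 without a scaling factor for library composition. The G1/S count was 6 without either hypoxic library, 1 without P12 normoxia replicate 1 or either E13 library and 0 without either E15 library. Among 10 genes of cell cycle exit, Btg1, an antiproliferative gene, rose from 144 and 107 CPM to 1086 and 816, and Gas5, a small nucleolar RNA host gene of growth arrest, fell from 165 and 159 to 21.4 and 21.3. Btg1 was not called without either E15 library, and Gas5 was called only without one of the hypoxic libraries.

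**Figure D4:**
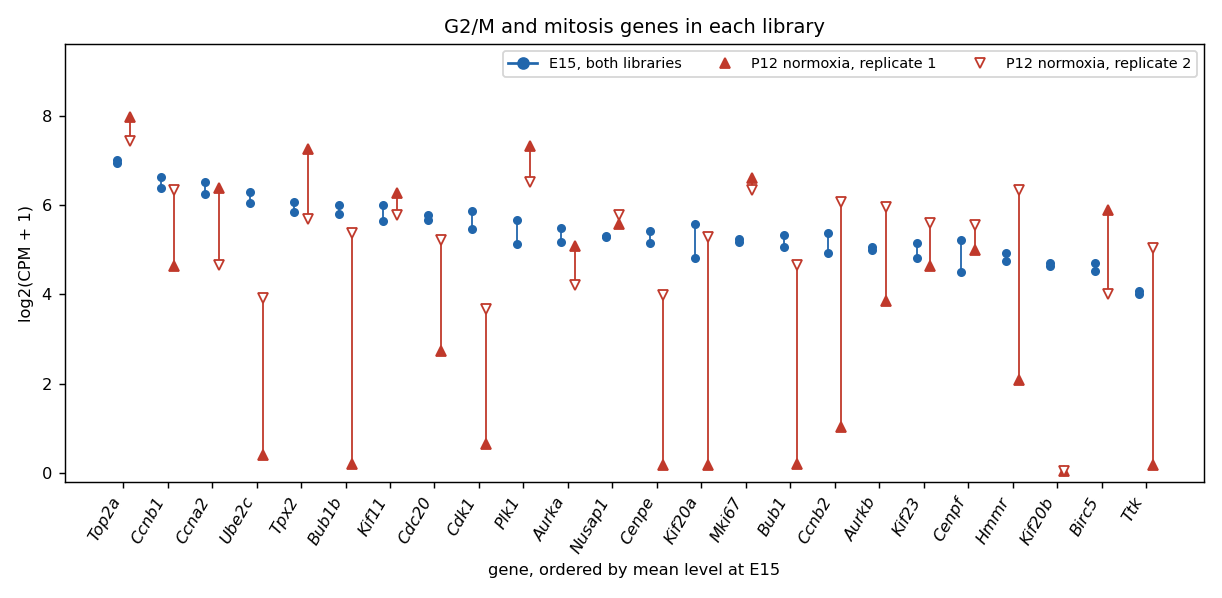
Level of the 24 G2/M and mitosis genes, as log2(CPM + 1), in the 2 E15 libraries (blue, joined) and in P12 normoxia replicate 1 (filled triangles) and replicate 2 (open triangles, joined to replicate 1). E15 pairs lie close together, while for Ube2c, Bub1b, Cdk1, Cenpe, Kif20a, Bub1 and Ttk the P12 replicate 1 value is under 1 and that of replicate 2 above 3, and Kif20b is near 0 in both.

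Regulators of RNA and chromatin changed gene by gene. In the list of genes that write, erase or read N6-methyladenosine (m6A), a methyl mark on messenger RNA, 3 of 20 were called higher and 3 lower, and the list's median was -0.62 on the log2 scale. Both erasers rose: Fto from 143 and 135 CPM to 352 and 393, by 1.42 on the log2 scale (SE 0.23, edgeR adjusted p = 0.019), and Alkbh5 from 41.9 and 45.9 to 224 and 156. Of the writer complex, Rbm15, an RNA-binding subunit, rose from 8.98 and 11.9 CPM to 159 and 121, and Mettl14, a core subunit (chromosome 3, 123368297 to 123386108), was not called, at 41.6 and 35.9 against 30.1 and 28.2. The reader Ythdf3 fell from 169 and 175 CPM to 57.1 and 59.2, and the RNA-binding proteins Hnrnpa2b1 and Hnrnpc fell from 1625 and 1645 to 516 and 603 and from 376 and 352 to 105 and 167. None of these calls on m6A genes held without E15 replicate 1 or without E15 replicate 2. Without P12 normoxia replicate 1 the list had 0 members called higher and 1 lower, and without either E13 library 1 higher and 0 lower. The median was -0.35 without P12 normoxia replicate 2. Among 17 splicing regulators 3 were called higher and 2 lower. Mbnl1, a muscleblind splicing factor, rose from 29.4 and 38.9 CPM to 3481 and 2603, by 6.48 (SE 0.38), its relative Mbnl2 from 19.9 and 23.2 to 153 and 132, and Qk, a glial RNA-binding protein, from 137 and 139 to 2145 and 1834. Elavl2, given above, and Khdrbs3, a neuronal splicing factor, fell, the latter from 217 and 231 CPM to 30.0 and 35.0. In the splicing list 1 member was called higher and 0 lower without either E15 library, 1 was called lower without either P12 normoxia library and 0 without either E13 library, 7 without P12 hypoxia replicate 1 and 6 without P12 hypoxia replicate 2.

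Among 20 genes of Polycomb, BAF and DNA methylation 3 were called higher and 0 lower. Dnmt3a, the de novo DNA methyltransferase (chromosome 12, 3806007 to 3914443), had 16.7 and 13.2 CPM at E15 and 734 and 724 at P12 and rose by 5.60 on the log2 scale (SE 0.43, edgeR adjusted p = 0.00233). Kdm6b, a demethylase that removes the Polycomb mark, rose from 16.9 and 23.9 CPM to 505 and 501, and Dpf1, a subunit of the neuronal BAF complex, from 21.1 and 25.2 to 461 and 158. Ezh2, the methyltransferase that writes the Polycomb mark, was not called, at 245 and 239 CPM against 72.1 and 44.1, lower in both P12 libraries. Dnmt3a and Kdm6b were called in all 8 fits and Dpf1 in 3, and 4 members were called lower without either hypoxic library. Of 12 heterochronic and fetal RNA-binding genes 10 were tested and 0 were called by edgeR, against 1 higher at an unadjusted p under 0.05, 1 higher by limma-voom and 0 by DESeq2. Igf2bp1, a fetal RNA-binding protein, had 46.3 and 33.4 CPM against 9.81 and 24.3, and Mycn, a growth-promoting factor of progenitors, 202 and 218 against 20.3 and 17.4. Lin28b, a fetal repressor of let-7 microRNAs, had no count in the 4 libraries, and Hmga2, a chromatin protein of young stem cells, stayed under 0.1 CPM in each.

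Few metabolic genes were called by edgeR in the fit of all libraries. Of 22 nuclear genes of oxidative phosphorylation 1 was called higher, Sdhb, a subunit of complex II, from 155 and 154 CPM to 383 and 337. Of 18 glycolysis genes 2 were called higher, both aldolases: Aldoc, given above, and Aldoa, from 90.7 and 106 to 398 and 293. In this fit these shares lie near the 7.19% of all tested genes called higher. Without either hypoxic library 6 glycolysis genes were called higher and 1 lower, and 1 oxidative phosphorylation gene higher and 3 lower. By DESeq2 these counts were 5 and 0 for glycolysis and 3 and 1 for oxidative phosphorylation. More of all tested genes were called in these fits too, as given above. Sdhb was called only without one of the hypoxic libraries, and Aldoa in 3 of the 8 fits. In cholesterol synthesis, which glia carry out for myelin and neurons, 3 of 18 genes rose and 0 fell, while 1 was called without either E15 library. Sc5d, a sterol desaturase of the last steps, rose from 78.6 and 89.0 CPM to 2714 and 1717, by 4.72 (SE 0.40, edgeR adjusted p = 0.00271), and Pmvk, phosphomevalonate kinase, from 29.2 and 24.4 to 483 and 286. The median log2 fold change of the cholesterol list was 0.25. Its sign changed in limma-voom and without a scaling factor for library composition. Of 26 cytosolic ribosomal protein genes 19 lay below E15 in both P12 libraries and 1 above, with a median of -1.14 on the log2 scale. By edgeR 0 were called, with 9 lower and 1 higher at an unadjusted p under 0.05, 8 lower and 1 higher by DESeq2, and 1 lower and 1 higher by limma-voom. Without either hypoxic library 7 of them were called lower. In the 12 tested replication-dependent histone genes, 1, Hist1h2ae, was called lower, by a ratio of 30.5 (95% counting interval 10.3 to 149), and only without one of the hypoxic libraries among the fits that leave out 1 library.

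Markers of other cell types were measured to see what else the libraries might hold. Endothelial genes summed to 10.6 and 13.8 CPM at E15 and to 11.1 and 0.913 at P12, with 0 of 9 tested members called by edgeR (5 lower at an unadjusted p under 0.05, 5 lower by DESeq2, 0 by limma-voom, and 4 lower by edgeR without either hypoxic library), and Cldn5, the claudin of brain endothelium, had 2.04 and 2.38 CPM at E15 and no count at P12. Of 4 tested microglia and macrophage genes 0 were called by edgeR (1 lower at an unadjusted p under 0.05, 1 higher by DESeq2, 1 higher by limma-voom). The defining markers Cx3cr1, P2ry12, Csf1r and C1qa did not pass the filter on low counts. Mural and fibroblast genes summed to 1.78 and 1.82 CPM at E15 and to 2588 and 2038 at P12, of which Rgs5 alone was 2501 and 1906. Col1a1, a fibrillar collagen and the other called member, had 2.32 and 10.98 CPM at P12, Pdgfrb, the receptor of pericytes, 21.9 and 72.0 (not called), and Vtn, vitronectin of pericytes, had no count at P12. Red blood cell genes summed to 20.98 and 85.95 CPM at E15 and to 0 in both P12 libraries, with 4 of 9 called lower, the adult globins Hba-a1, Hba-a2, Hbb-bs and Hbb-bt, whose near-identical copies make the split of counts between them uncertain. That count was 0 without either P12 normoxia or either E15 library and 1 without either E13 library. Ependymal and motile cilia genes had 1 of 12 tested members called higher and 1 lower: Rsph1, of ciliary radial spokes, had no count at E15 and 26.6 and 28.0 CPM at P12 (at least 540.3-fold higher), and Mcidas, a regulator of multiciliated cells, had 1.04 and 2.15 CPM at E15 and no count at P12. Rsph1 was not called without either E15 library, and Mcidas and Col1a1 were called only without one of the hypoxic libraries. Foxj1, the master factor of motile cilia, was not called, at 1.11 and 0.964 CPM against 24.1 and 56.2. The part of such cells in the results above was not tested.

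**Figure D5:**
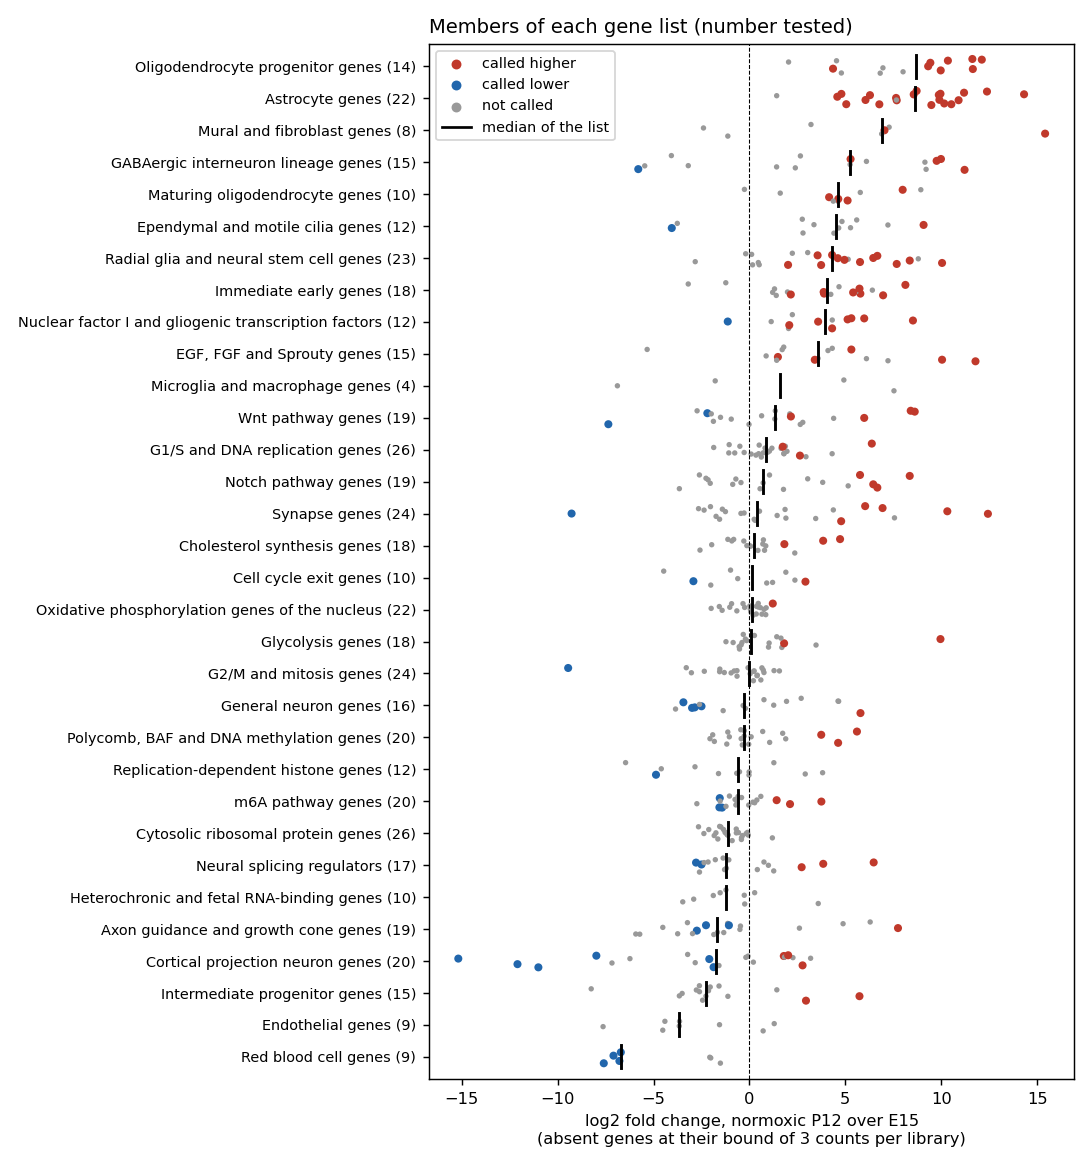
Log2 fold change (P12 normoxia over E15) of every tested member of the 32 gene lists, with genes absent from one group placed at their bound of 3 counts per library, members called higher in red, called lower in blue and not called in grey, and the list median as a black bar. Oligodendrocyte progenitor and astrocyte lists have the medians farthest right and the endothelial and red blood cell lists those farthest left, while the medians of the mitosis, glycolysis and oxidative phosphorylation lists lie near 0.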

How the data were processed

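Each of the 8 libraries came as a table of raw counts per gene, made by the authors and deposited without normalisation. Per the submitters' processing notes, cutadapt, STAR and Subread were used with the GRCm38 build. Their versions, the annotation release and the use of strand are not given in the sources used here, so reads of overlapping or antisense genes may be shared between rows. Of 55487 rows per file, 1980 name no gene (0.205% to 0.266% of a library's counts) and were left out, which leaves 53507, 14 of them with gene symbols turned into dates.

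Counts were analysed with edgeR 4.0.16 in R 4.3.3. All 8 libraries entered 1 fit of 4 groups with TMM scaling, so that the spread is shared between the groups (4 residual degrees of freedom). That spread was unequal. Among genes with at least 10 CPM in one library, replicates differed by a median of 1.51 on the log2(CPM + 1) scale in P12 hypoxia. The median was 0.909 in P12 normoxia, 0.174 at E13 and 0.155 at E15. The p-values therefore do not measure the spread of the compared groups alone. Genes were kept by filterByExpr with a minimum count of 10 and a minimum total of 15, which left 19936. The normoxic P12 group was compared with E15 by the quasi-likelihood test, 2-sided, with Benjamini-Hochberg adjustment over all 19936 genes and a threshold of 0.05. The SE printed with a log2 fold change is its absolute value divided by the square root of the F statistic of this test. It is not a standard error estimated by the fit. Levels are CPM of the normalised library, in which 3 counts are worth 0.0482 to 0.0978 CPM in the 4 libraries. Positions come from GENCODE M21, matched by symbol for 19490 genes (97.8%), and promoters from RefSeq on GRCm38.p6. The scripts were tested on simulated data first.

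Named genes are up to 12 per direction with the widest gap between the groups (lowest CPM of the higher group over highest of the lower, libraries under 3 counts set to 3) taken from calls whose higher group reached 10 CPM in each of its libraries, up to 4 members per list with the smallest p, and 25 genes known for their roles at these stages. Provisional, pseudogene, sex-linked, immunoglobulin and date-named rows were skipped. Other list members are named to complete a list's calls or to show defining genes, and these were chosen after their values were seen. The comparison, the 32 lists and the rule were chosen with earlier results of these data known. Some genes that the rule names are not reported here. DESeq2 1.42.0 and limma 3.58.1 (voom), other scalings and filters, fewer libraries and a replicate block served as alternatives.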

Additional observations from a re-analysis of the deposited data

How the results depend on the processing

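By DESeq2 3630 genes were higher and 2568 lower, and by limma-voom 2743 were higher. Without the low-count filter 308 were lower, and against a log2 fold change of 1, 330 were. The 4 compared libraries alone gave 1496 lower, and the fit without the hypoxic libraries 2759 higher and 2443 lower. Of 3 alternatives chosen after seeing the data, DESeq2 on the 4 libraries gave 3901 higher and 2386 lower, limma-voom on them 2375 and 1760, and no scaling factor 1385 lower. In fits without 1 library, 186 to 2412 genes were higher and 24 to 2017 lower. A replicate block left 696 higher and 130 lower. No label says whether equal replicate numbers share a litter, batch or day. The correlation of their deviations from the group means ran from -0.0444 to 0.0137 over 6 pairs of groups. It cannot settle the question, since a small shared effect could go unseen. The cause of these moves was not tested.

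Of the 2075 calls, 2075 were also made by DESeq2, 1824 by limma-voom, 1904 with RLE scaling, 1941 with upper-quartile scaling, 1283 without the filter, 1679 without a scaling factor and 824 with the replicate block. The median of all genes moved to -0.34 in limma-voom and -0.18 with upper-quartile scaling. For 30 genes examined one by one, 585 of the alternative values stayed on their side of the threshold, 75 were no longer past it and 0 changed sign. Only 2 libraries per group limit every value here, and 3 counts set the lowest level that can be told from 0.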

Other observations

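Genes of striatal medium spiny neurons were not among the lists. They were looked up after 2 of the widest separations, Scn4b and Pcp4l1, had been seen, so these genes were chosen after values were known. Ppp1r1b, which encodes the dopamine-regulated phosphatase inhibitor DARPP-32, had 10.5 and 15.4 CPM at E15 and 685 and 775 at normoxic P12, and rose by 5.81 on the log2 scale (SE 0.48, edgeR adjusted p = 0.00255). In the hypoxic P12 libraries it had 0.168 and 0.296 CPM. Drd2, a dopamine receptor, had no count in the E15 or the hypoxic libraries and 49.4 and 37.7 CPM at normoxic P12, at least 863-fold higher than at E15. Rgs9, a G protein regulator of the striatum, had no count at E15, 123 and 199.9 CPM at normoxic P12 and 28.2 and 34.7 in hypoxia. All 3 genes thus lay higher in both normoxic libraries than in any E15 or hypoxic library, a difference from hypoxia that was not tested here. Tac1, the precursor of substance P, was also called, with 2.57 and 29.5 CPM against no count at E15. Adora2a, an adenosine receptor, had 212 and 264 CPM at normoxic P12 against no count at E15, and was not called. Penk, Drd1, Pde10a and Meis2 were not called either.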
